A study of Mus musculus with 12 samples.

Results

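Liver RNA of mice given the compound coded KSL0608-Se was compared with liver RNA of the group that the labels name doxo. Of the 12 RNA-seq libraries of the series, 8 entered the comparison, 4 labelled doxo-KSL0608-Se and 4 labelled doxo. All genes with a mean of at least 1 TPM over the 12 libraries were taken, which gave 10883 of the 55903 genes in the deposited table. TPM is an abundance scaled by transcript length to a fixed total per library.

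The doxo libraries are titled aged control with the condition aged, and their description reads doxo. The libraries given the compound are titled KSL0608-Se-treated, and their description names doxo as well, so both compared groups carry that word. The remaining 4 libraries are young controls, described as control, and are given here as a reference level. The groups are called treated, doxo and control below. The labels used here state no dose, schedule, strain, age in numbers or light exposure, and no structure of the compound. Light-activated senolysis is the setting that the title of the series names. Which animals gave which libraries is not stated, and the p-values therefore measure only the spread between libraries, which may be technical.

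Senolysis is the removal of senescent cells, which have stopped dividing for good. Such cells commonly express the cell-cycle inhibitors p21, encoded by Cdkn1a, and p16, encoded by Cdkn2a, and release a mix of cytokines, growth factors and proteases known as the secretory phenotype. Liver tissue is mostly hepatocytes, which make plasma proteins, glucose, bile acids and lipids. Sinusoidal endothelium, Kupffer cells, stellate cells, bile duct cells and the smooth muscle of vessels make up the rest.

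Sequences are shown for the gene that passed the test and for a pair of glucose-production genes that were high in every treated library. The first is the annotated transcript of the called gene, Gm47551, from GENCODE M21 on GRCm38, because its letters bear on how its reads can be assigned. The next are RefSeq promoters on GRCm38.p6, from 250 bases before the gene start to 50 after it, each given 5′ to 3′ on the strand of its gene. Capitals in the G6pc promoter mark a TATA box (TATAAA), and capitals in the Pck1 promoter mark a cyclic AMP half-site read on the opposite strand (TGACG).
Gm47551 transcript: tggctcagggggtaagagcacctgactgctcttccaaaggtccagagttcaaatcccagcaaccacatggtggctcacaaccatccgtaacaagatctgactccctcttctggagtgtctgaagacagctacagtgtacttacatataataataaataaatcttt
G6pc promoter: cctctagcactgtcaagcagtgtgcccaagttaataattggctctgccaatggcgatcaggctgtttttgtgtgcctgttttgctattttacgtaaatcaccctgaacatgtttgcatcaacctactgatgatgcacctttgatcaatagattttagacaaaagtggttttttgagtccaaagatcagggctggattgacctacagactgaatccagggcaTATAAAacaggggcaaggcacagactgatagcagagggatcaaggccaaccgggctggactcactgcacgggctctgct
Pck1 promoter: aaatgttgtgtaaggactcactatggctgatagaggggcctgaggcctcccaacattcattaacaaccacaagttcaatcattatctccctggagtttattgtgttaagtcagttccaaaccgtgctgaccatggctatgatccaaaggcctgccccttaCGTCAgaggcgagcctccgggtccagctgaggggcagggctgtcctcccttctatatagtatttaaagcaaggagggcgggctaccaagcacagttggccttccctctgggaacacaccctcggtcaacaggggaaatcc
The G6pc window is chr11:101367466-101367765 and the Pck1 window chr2:173152823-173153122, both on the plus strand. The TATAAA match spans positions -29 to -24 of G6pc, and 8.32% of 32851 RefSeq promoters hold these letters on the printed strand. The half-site spans positions -90 to -86 of Pck1, and 20.8% of the promoters hold TGACG on either strand. A full cyclic AMP element (TGACGTCA) and a FOXO site (GTAAACA) were also searched on both strands and matched neither window, and 1.79% and 3.65% of the promoters hold them. Matches and their absence describe the letters of these windows only.

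The hepatocyte genes Alb, Apoa1 and Ttr were among the abundant transcripts of all 12 libraries, and Alb stood at 16214 TPM or more in each, as the liver label states. Depth is unknown, because TPM keeps none, and between 9568 and 11023 genes reached 1 TPM per library. Doxo library 2 stood apart. Transcripts of the mitochondrial genome held 27.6% of its TPM, against 9.82% to 11.5% in the other doxo libraries and 8.72% to 11.9% in treated ones. The nuclear RNA Neat1, chosen after its values were seen, stood there at 88.0 TPM, against 10.4 to 34.9 TPM in the other 7. That library held the lowest value of the 8 in 69.7% of genes, so results are given with and without it.

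Most transcripts were somewhat higher in treated than in doxo liver on the deposited scale, and few single genes stood clear of the spread. The median difference over all 10883 genes was 0.30 on the log2(TPM + 1) scale, and 8812 genes (81.0%) had a difference above 0. Without doxo library 2 the median was 0.13 and 7870 genes (72.3%) were above 0. The median was 0.03 after quantile normalization, 0.02 with each library's slope on gene length in the fit, and 0.14 when the total left out the 50 most abundant and the mitochondrially encoded genes. Differences of genes and lists are therefore read beside 0.30, or beside 0.13 without that library. Differences above 1 were seen in 163 genes and below -1 in 137, which became 82 and 100 without doxo library 2.

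Limma, a linear model fitted to all genes and all 12 libraries, called 0 genes higher (0.0% of those tested) and 1 gene lower (0.00919%) at an adjusted p under 0.05. At an unadjusted p under 0.05 it gave 416 higher genes (3.82%) and 103 lower (0.946%), together 4.77% of those tested. In 302 genes (2.77%) all 4 treated libraries lay above all 4 doxo libraries, and in 39 genes (0.358%) all lay below. Without doxo library 2 these counts were 321 (2.95%) and 96 (0.882%). The median standard error was 0.262, and the 95% interval of 36.9% of genes allowed a difference as high as 1. Genes without a call are thus not shown to be alike. Apart from Gm47551, the limma adjusted p of each gene named below was 0.427 or higher in this fit, and none of them passed it.

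**Figure D1:**
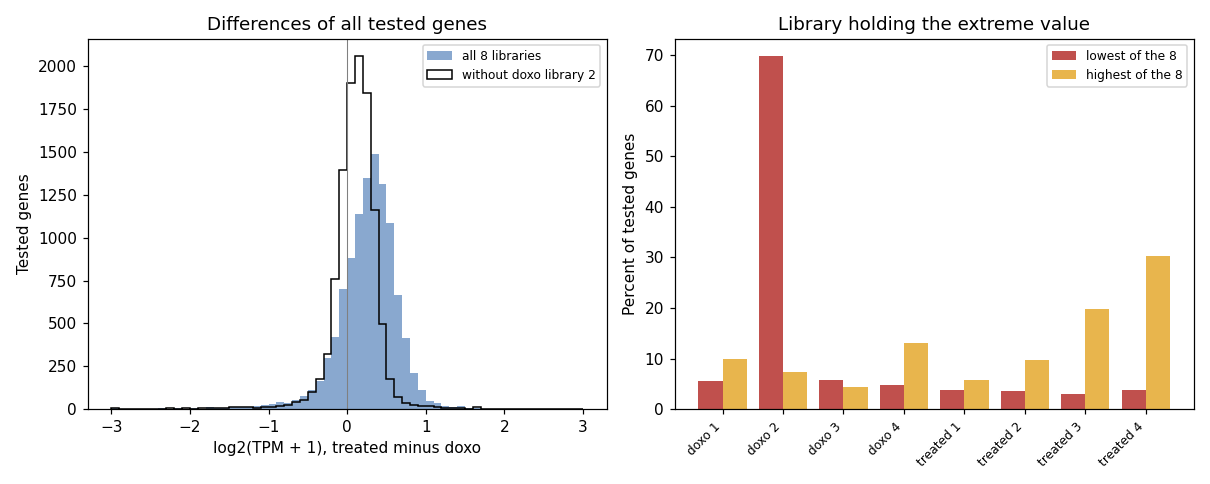
Left, number of tested genes by difference of mean log2(TPM + 1), treated minus doxo, with all 8 libraries (filled) and without doxo library 2 (line). Right, percent of the 10883 tested genes whose lowest or highest TPM of the 8 lies in each library. The filled distribution centres at 0.30 and the line at 0.13, and doxo library 2 holds the lowest value in 69.7% of genes.

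The gene that fell was Gm47551, a noncoding RNA annotated as antisense. It was listed at 0 in treated libraries 1 to 3 and at 1.47 TPM in library 4. In the doxo libraries it stood at 14.5, 58.1, 22.6 and 57.3 TPM, and in the controls at 68.1, 16.7, 12.4 and 27.5 TPM. The treated values lay below all doxo and all control values, which overlapped each other. The log2 difference was -4.74 (SE 0.55, limma adjusted p = 0.0127, n = 4 libraries a group).

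Gm47551 lies on chromosome 13 from 98801172 to 98803736 on the plus strand of GRCm38, inside Fcho2, a gene for a membrane-bending protein of endocytosis on the minus strand. Its 2 exons share 0 bases with exons of Fcho2, whose log2 difference was -0.06 (limma adjusted p = 0.815). Its transcript, printed above, has 165 bases and 135 stretches of 31 bases, of which 126 (93.3%) also occur in transcripts of other annotated genes. These 1117 other genes share at least 1 stretch with it, and the most held by a single gene is 86 (63.7%). Most stretches of this length thus do not mark this locus alone. How its reads were assigned was not tested, and its value is uncertain. The call was lost without doxo library 2 or 4, or without treated library 1, 2 or 3. Over 26 settings the limma adjusted p lay between 0.000119 and 0.174, and the gene was called in 13.

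Among genes of glucose production, G6pc and Pck1 stood high in every treated library. G6pc encodes the phosphatase that completes glucose release from the hepatocyte. It stood at 107, 213, 156 and 165 TPM in the treated libraries. In the doxo libraries it stood at 78.9, 21.5, 68.5 and 59.1 TPM, and in controls between 45.6 and 136 TPM. The groups did not overlap, and the means were 160.2 ± 43.3 and 57.0 ± 25.03 TPM (SD, n = 4). The log2 difference was 1.58 (SE 0.41), and 1.18 without doxo library 2.

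Pck1, the enzyme that commits carbon to gluconeogenesis, stood at 256, 495, 374 and 304 TPM in treated libraries. Its doxo values were 173, 62.8, 182 and 188 TPM, again without overlap, and controls lay between 90.1 and 295 TPM. The log2 difference was 1.31 (SE 0.41), and 0.93 without doxo library 2. Across all settings tried, the difference stayed between 1.05 and 1.78 for G6pc and between 0.93 and 1.46 for Pck1.

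Of 27 measured gluconeogenesis and fasting genes, 0 were called, 2 lay above all doxo libraries and 26 had a positive difference. Over all tested genes 2.77% lay above all doxo libraries and 81.0% were positive, or 72.3% without doxo library 2. These 27 genes had a median of 0.66, which was 0.33 without that library. After these 2 genes came Angptl4, a fasting-induced inhibitor of lipoprotein lipase (0.95), and Klf15, a transcription factor of amino acid use in fasting (0.66). Tat, which breaks down tyrosine, followed at 0.99. These 3 overlapped between groups. Of 22 glycolysis and glycogen genes, the glucose transporter gene Slc2a2 alone lay above all doxo libraries (68.6 to 94.3 against 37.1 to 66.0 TPM). Their median was 0.56, and 0.17 without doxo library 2.

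Lipogenesis genes had a median of 0.71 over 32 measured genes, which was 0.38 without doxo library 2 and 0.14 with the length slope in the fit. With all libraries it was the highest median of the 44 lists, and without doxo library 2 the endothelial median (0.47) exceeded it. None of the 32 was called. On the higher side 10 had an unadjusted limma p under 0.05, beside 3.82% of all genes, and 29 were positive, beside 81.0%. Those that lay above all doxo libraries, beside 2.77% of all genes, were Scd1, Elovl5 and Mogat1. Scd1, which puts the double bond into monounsaturated fatty acids, stood at 2033, 2829, 2572 and 2048 TPM in treated and 1888, 591, 1296 and 669 TPM in doxo libraries. The highest doxo value was thus close below the lowest treated one, and the log2 difference was 1.24 (SE 0.52).

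Elovl5, an elongase of polyunsaturated fatty acids, stood at 213, 186, 189 and 155 TPM in treated libraries. Its doxo values were 136, 75.3, 153 and 99.9 TPM, and the log2 difference was 0.72 (SE 0.28). Mogat1, an acyltransferase of triglyceride synthesis, averaged 1.52 ± 0.65 against 0.43 ± 0.13 TPM (SD, n = 4). Its difference was 0.78 (SE 0.29), and 0.74 without doxo library 2. Elovl2, an elongase for longer polyunsaturated chains, overlapped between the groups, with a difference of 0.83.

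All 30 measured cholesterol genes and all 36 PPARA and fatty acid oxidation genes had a positive difference, none was called, and 1 in each lay above all doxo libraries, a share (3.33% and 2.78%) near the 2.77% of all genes. Their medians were 0.59 and 0.58, and 0.28 and 0.23 without doxo library 2. In the cholesterol list this was Acat2, an enzyme of the first step of sterol synthesis (41.1 to 51.4 against 10.8 to 37.9 TPM). In the oxidation list it was the ketone body enzyme gene Bdh1, which is outside the naming rule. Ppara itself, the fatty acid sensor, overlapped at 24.1 to 31.9 against 10.2 to 25.2 TPM (log2 difference 0.72, SE 0.26). Of 24 bile acid genes, Nr0b2, the repressor that restrains bile acid synthesis, lay above all doxo libraries at 73.4 to 92.1 against 33.6 to 72.7 TPM.

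**Figure D2:**
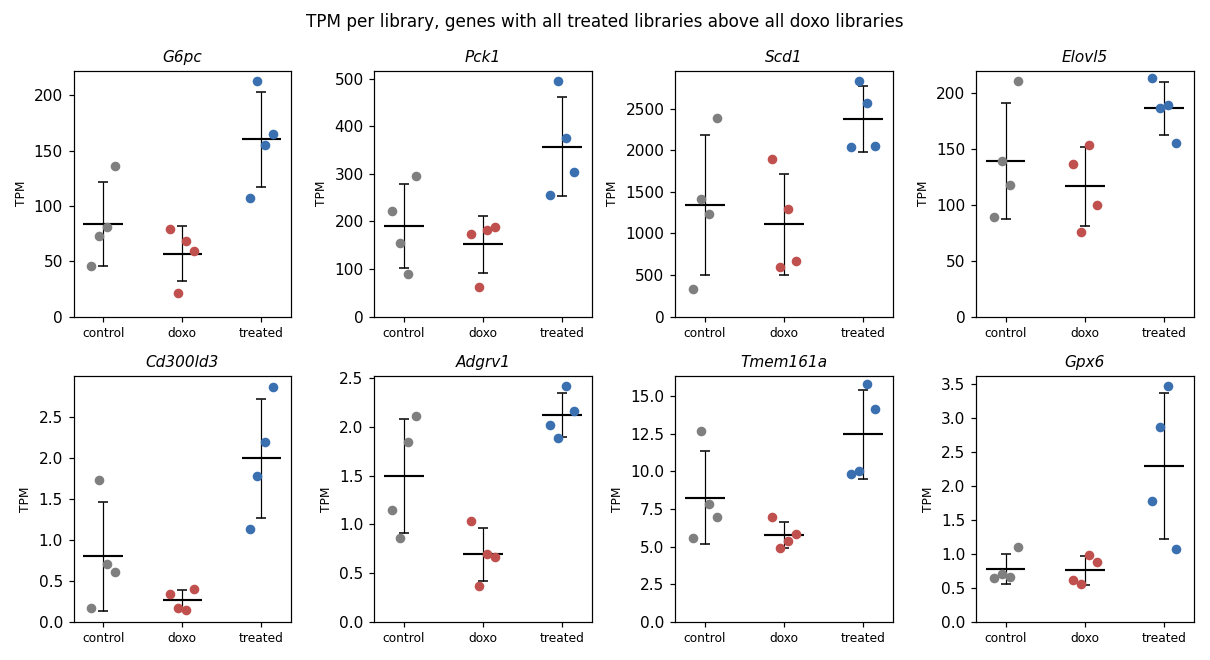
TPM per library (points, axes from 0, each gene on its own scale) with the group mean and SD (bars) for 8 genes whose 4 treated libraries lie above the 4 doxo libraries. G6pc and Pck1 are separated by a wide gap, whereas for Scd1 and Elovl5 the nearest doxo and treated libraries lie close together. None of these genes passed the test over all genes.

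The other higher genes of smallest p came from unrelated families. Cd300ld3, a member of a family of myeloid surface receptors, stood at 1.13, 1.78, 2.19 and 2.86 TPM in treated and 0.34, 0.17, 0.14 and 0.40 TPM in doxo libraries (log2 difference 1.22, SE 0.26). Controls ranged from 0.16 to 1.73 TPM and overlapped both groups. Adgrv1, a very large adhesion receptor, stood at 1.89 to 2.42 against 0.37 to 1.03 TPM (log2 difference 0.89, SE 0.20). The membrane protein gene Tmem161a stood at 9.84 to 15.8 against 4.93 to 6.97 TPM (log2 difference 0.97, SE 0.24).

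Next came Gpx6, a glutathione peroxidase, at 1.07 to 3.47 against 0.55 to 0.99 TPM (log2 difference 0.85, SE 0.24). It was 1 of 28 measured genes of the selenoprotein list above all doxo libraries, 3.57%, which is near the 2.77% of all genes. Gpx6 is in that list by its family, and the mouse protein is not itself a selenoprotein. The median of that list was 0.49, and 0.14 without doxo library 2, and none was called. Lzic, Ints6, Cwc22, Herc2, Tex30 and Elf2 completed the 12 genes of smallest p, with log2 differences of 0.98, 1.17, 0.73, 0.72, 0.60 and 0.71. Ints6 is a subunit of the Integrator complex, Cwc22 a splicing factor, Herc2 a ubiquitin ligase and Elf2 an ETS transcription factor.

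Several muscle filament and vessel wall genes stood low in treated liver. Nexn, an actin-binding protein of muscle, stood at 3.77, 0.19, 0.15 and 0.14 TPM in treated libraries and 10.4, 25.03, 3.99 and 7.30 TPM in doxo libraries. Treated library 1 came close to doxo library 3, and the other treated libraries lay near 0. The log2 difference was -2.67 (SE 0.57), and -2.24 without doxo library 2. Mgp, an inhibitor of calcification made in vessel walls, stood at 2.14, 4.62, 1.53 and 2.41 against 5.65, 6.24, 8.89 and 15.2 TPM (log2 difference -1.42, SE 0.30).

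Acta2, smooth muscle actin, stood at 1.73, 2.58, 0.53 and 1.64 TPM in treated and 2.89, 3.66, 7.48 and 9.02 TPM in doxo libraries. Its log2 difference was -1.32 (SE 0.41), and -1.46 without doxo library 2. Tagln, an actin-binding protein of smooth muscle, stood at 2.96 to 3.97 against 5.01 to 10.3 TPM (log2 difference -0.81, SE 0.29). Tnnt2, the cardiac troponin T gene, stood at 0.57, 0.63, 0.56 and 0.39 against 0.90, 4.64, 2.63 and 5.11 TPM (log2 difference -1.36, SE 0.35). For these 5 genes the control ranges were 1.48 to 7.07 TPM for Nexn, 2.49 to 3.90 for Mgp, 0.94 to 5.22 for Acta2, 2.47 to 7.34 for Tagln and 0.26 to 1.79 for Tnnt2.

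The 12 measured contractile genes had a median of -0.49, -0.50 without doxo library 2 and between -0.81 and -0.25 over all settings. None was called. Below all doxo libraries lay 5, beside 0.358% of all genes, and 1 lay above, beside 2.77%. The latter was Mylk, myosin light chain kinase (11.5 to 12.9 against 9.91 to 11.2 TPM). Nexn, Mgp and Tnnt2 were put in this list with their earlier results known, so neither the count nor the median is support. The other 9 genes had a median of -0.25, or -0.27 without doxo library 2. Of these, 2 lay below all doxo libraries, Acta2 and Tagln, beside 0.358% of all genes. Both are among the genes named above for smallest p without overlap, and the list was chosen with earlier results known. Their count is thus no support either. Summed over those 9 genes the groups overlapped, at 47.7 to 52.6 TPM in treated and 52.2 to 77.2 TPM in doxo libraries. The summed TPM of all 12 was 53.9 to 56.3 in treated, 72.6 to 105 in doxo and 38.7 to 78.9 in control libraries. The smooth muscle marker Myh11, below the filter, stood at 0.25 to 0.41 TPM in treated and 0.52 to 1.67 TPM in doxo libraries. In bulk tissue, fewer cells of a type and less RNA per cell cannot be told apart.

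Cardiac markers were present in some libraries. Myh6, Tnni3 and Actc1 stood at 2.02, 1.86 and 1.85 TPM in doxo library 2, at 1.76, 1.59 and 2.57 TPM in doxo library 4, and at 1.35, 0.99 and 2.31 TPM in control library 1. In doxo libraries 1 and 3 and all treated libraries each of these genes was at 0.15 TPM or less. The cardiac marker Myl7 did not follow this split. It stood at 0.15, 1.94, 0.87 and 1.76 TPM in doxo libraries and 0.34, 0.93, 0.14 and 0.82 TPM in treated libraries. In control library 1 it stood at 0.67 TPM. Nexn stood at 25.03 and 7.30 TPM in doxo libraries 2 and 4 and at 10.4 and 3.99 TPM in doxo libraries 1 and 3. Tnnt2 stood at 4.64 and 5.11 TPM in doxo libraries 2 and 4 and at 0.90 and 2.63 TPM in doxo libraries 1 and 3. The highest treated values, 3.77 TPM for Nexn and 0.63 TPM for Tnnt2, were close to the lowest doxo values. The part of cardiac RNA in the difference was not tested.

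Haemoglobin transcripts, which mark red blood cells in the tissue, stood low as well. Hba-a1 stood at 162, 238, 240 and 266 TPM in treated and 303, 618, 429 and 440 TPM in doxo libraries (log2 difference -0.96, SE 0.34). Hbb-bs stood at 238 to 573 against 583 to 895 TPM (log2 difference -0.76, SE 0.33). Hba-a2 also lay below all doxo libraries, with a difference of -0.67, and Hbb-bt overlapped at -0.73. The alpha copies, and the beta copies, are nearly identical in sequence, so single copies are uncertain. Together they held 0.131% ± 0.0395 of TPM in treated, 0.215% ± 0.0327 in doxo and 0.126% ± 0.05 in control libraries (SD, n = 4). The exact two-sided permutation test of treated against doxo gave p = 0.0286, the smallest it can give, or 0.114 adjusted over 4 library measures.

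Of 8 measured erythroid genes 3 lay below all doxo libraries, beside 0.358% of all genes, none lay above, and none was called. Their median was -0.51, and -0.47 without doxo library 2. Alas2, the haem synthesis enzyme of red cell precursors, did not follow the globins, at 86.3 to 105 against 77.1 to 99.6 TPM (log2 difference 0.15). The list summed to 855 to 1792 TPM in treated, 1851 to 2582 in doxo and 846 to 2005 in control libraries.

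**Figure D3:**
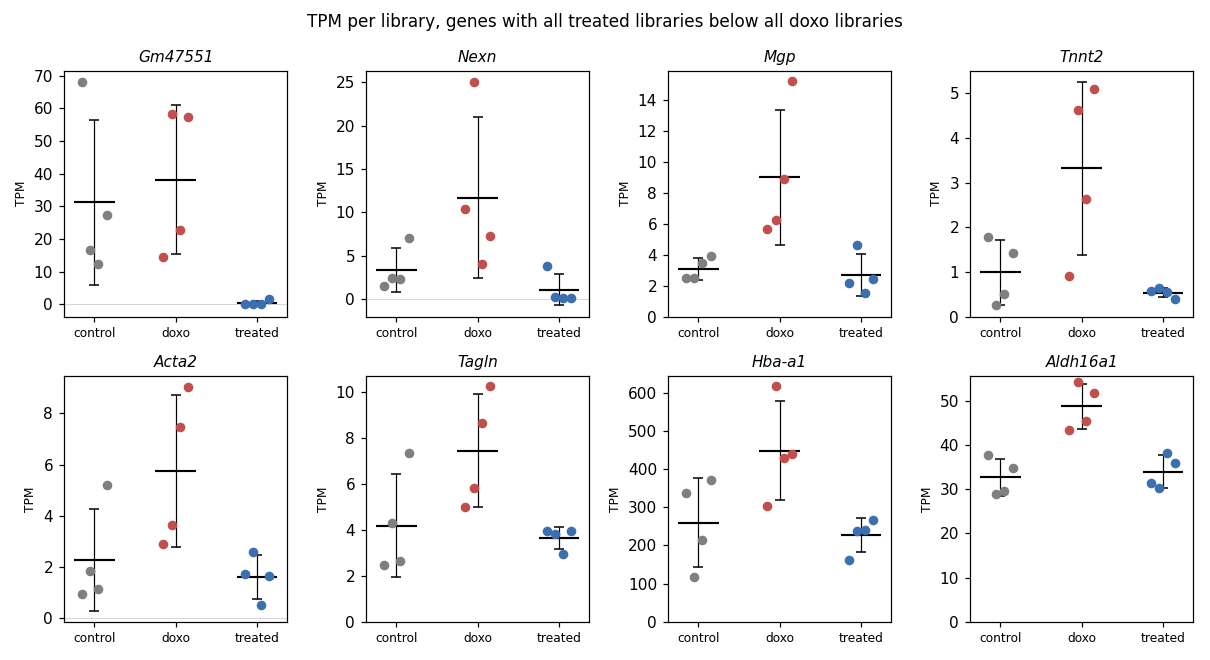
TPM per library (points, axes reaching 0, each gene on its own scale) with the group mean and SD (bars) for 8 genes whose 4 treated libraries lie below the 4 doxo libraries. Gm47551 alone passed the test, with treated values of 0 to 1.47 TPM. For most of these genes the control and treated libraries overlap, and doxo library 2 is not always the highest doxo value.

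Other lower genes of smallest p were Fxyd3, Itgb7, Rpph1, Aldh16a1, Amn1 and Rps2-ps10. Fxyd3, a regulator of the sodium pump, stood at 0.06 to 0.60 against 1.19 to 4.56 TPM (log2 difference -1.31, SE 0.33). Itgb7, an integrin of gut-homing lymphocytes, stood at 0.47 to 1.46 against 1.86 to 2.76 TPM (log2 difference -0.70, SE 0.19). Rpph1, the RNA of ribonuclease P, had a difference of -1.88 and stood highest in doxo library 2 at 13.9 TPM. Aldh16a1, of the aldehyde dehydrogenase family, stood at 30.2 to 38.2 against 43.3 to 54.3 TPM, and controls at 29.0 to 37.7 TPM. Its difference was -0.51 (SE 0.17). Amn1 and the pseudogene Rps2-ps10, which shares sequence with a ribosomal protein gene, had differences of -0.84 and -0.52.

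The median of sinusoidal endothelial markers barely moved with doxo library 2. It was 0.48 over 25 measured genes with that library and 0.47 without it, beside 0.30 and 0.13 for all genes. None was called, 2 (8.0%, beside 2.77% of all genes) lay above all doxo libraries and none below. At an unadjusted limma p under 0.05 there were 8 higher and 1 lower, beside 3.82% and 0.946% of all genes. The list summed to 155 to 268 TPM in treated, 105 to 224 in doxo and 98.1 to 205 in control libraries, so its sums overlapped.

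Ptprb, a phosphatase of endothelial cells, stood at 2.22, 2.16, 3.63 and 4.47 TPM in treated and 1.69, 1.24, 1.23 and 1.88 TPM in doxo libraries (log2 difference 0.68, SE 0.24). Rspo3, which amplifies WNT signals to pericentral hepatocytes, stood at 1.30 to 1.78 against 0.84 to 1.17 TPM (log2 difference 0.24, SE 0.15). It was named for its lack of overlap after its values were seen. Oit3 and Flt4, a secreted protein of these cells and the VEGF receptor of lymphatic and sinusoidal endothelium, overlapped with differences of 0.80 and 0.61. Stab1, a scavenger receptor, lay the other way at 9.19 to 17.9 against 11.6 to 33.5 TPM (log2 difference -0.83, SE 0.33). Its relative Stab2 was positive, at 3.33 to 9.87 against 2.48 to 5.02 TPM.

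**Figure D4:**
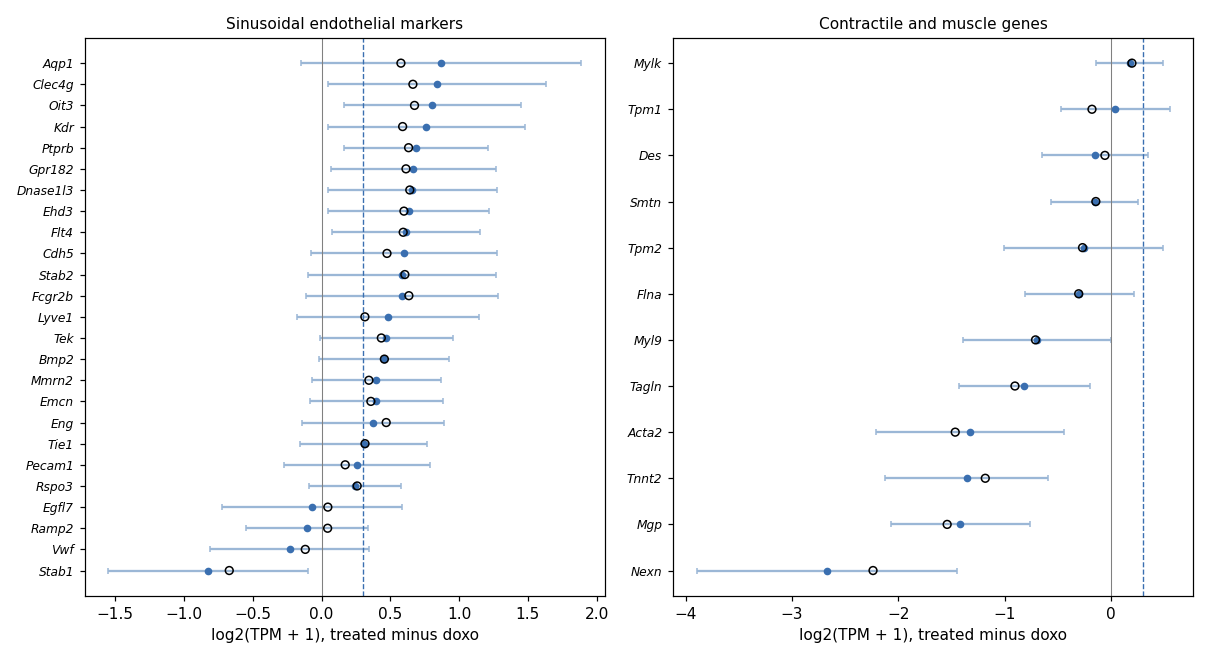
Difference of mean log2(TPM + 1), treated minus doxo, with its 95% interval from limma (filled points and bars) and without doxo library 2 (open circles) for measured endothelial (left) and contractile genes (right). The dashed line is the all-gene median of 0.30. Most endothelial markers lie to its right while Stab1 lies at -0.83, and 5 contractile genes lie at -0.81 or below.

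Stellate cell and collagen genes went both ways. Of 22 measured, none was called. Col4a1 and Col4a2, the basement membrane collagens, lay above all doxo libraries, beside 2.77% of all genes. Col1a1, a fibrillar collagen, lay below, beside 0.358% of all genes. Col1a1 stood at 0.80, 0.90, 0.82 and 0.75 against 1.30, 1.13, 1.24 and 2.32 TPM (log2 difference -0.44, SE 0.19). Col4a1 stood at 4.38 to 5.65 against 2.92 to 3.96 TPM (log2 difference 0.41, SE 0.26). The stellate marker Reln overlapped, with a difference of 0.83. The list median was 0.04, positive in 19 of 26 settings, and -0.22 after quantile normalization.

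Kupffer cell and macrophage markers had a median of 0.51 over 16 measured genes, and 0.26 without doxo library 2. None was called and none was free of overlap, beside 2.77% of all genes above all doxo libraries and 0.358% below. The markers summed to 238 to 359 TPM in treated but 95.1 to 575 TPM in doxo libraries, so the spread lay in the doxo group. Clec4f, a lectin of Kupffer cells, stood at 49.9, 20.7, 21.3 and 124 TPM there and at 42.2 to 65.6 TPM in treated libraries. Among bile duct markers, 6 were measured, and Krt19 lay below all doxo libraries, beside 0.358% of all genes. It stood at 0.69 to 2.03 against 2.09 to 3.63 TPM. Of 5 B cell and plasma cell markers, Ighm, the heavy chain of IgM, lay above, beside 2.77% of all genes. Its values were 8.66 to 15.6 against 6.0 to 7.29 TPM. T cell and neutrophil markers had 3 measured genes each and no gene free of overlap.

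Senescence genes, to which the series title points, held no call. Of 24 measured senescence regulators and markers, 0 were called by limma, 0 had an unadjusted limma p under 0.05 and 0 were free of overlap. Over all genes 4.77% had such a p, 2.77% lay above all doxo libraries and 0.358% below. At shares this small a list of 24 can hold none without standing out. The list median was 0.27, and 0.11 without doxo library 2, both just under the all-gene medians. It was -0.01 after quantile normalization. Cdkn1a stood at 24.4, 27.2, 31.3 and 18.2 TPM in treated and 31.7, 12.8, 25.8 and 20.8 TPM in doxo libraries. Controls lay below every value of both groups, at 1.89, 8.89, 3.41 and 5.74 TPM. The log2 difference of treated from doxo was 0.19 (95% interval -0.60 to 0.98, limma adjusted p = 0.744), and -0.05 without doxo library 2. It was negative in 7 of 26 settings. Cdkn2a was below the filter, at 0.23 TPM or less in all 8 libraries.

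Glb1, the lysosomal beta-galactosidase behind a common senescence stain, stood at 5.92 to 7.69 against 3.20 to 6.51 TPM (log2 difference 0.36, SE 0.21). Rb1, the retinoblastoma protein gene, stood at 6.84, 1.52, 3.67 and 3.03 against 4.23, 16.0, 5.94 and 5.44 TPM (log2 difference -0.85, SE 0.41). It had the smallest p of that list and overlapped. Of 40 lysosomal genes none was free of overlap, beside 2.77% of all genes above all doxo libraries and 0.358% below. The list median was 0.47, or 0.16 without doxo library 2.

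Of 23 measured secretory phenotype and cytokine genes none was called or free of overlap, and 0 had an unadjusted limma p under 0.05. Over all genes 4.77% had such a p, 2.77% lay above all doxo libraries and 0.358% below, so these zeros do not set the list apart. The list median was 0.10, -0.08 without doxo library 2 and -0.20 after quantile normalization. Cxcl1, a neutrophil attractant, stood at 2.59, 2.13, 3.20 and 3.63 against 4.37, 2.94, 5.31 and 7.41 TPM (log2 difference -0.59, SE 0.31). Without doxo library 2 its groups no longer overlapped, and its difference was -0.78. In that setting 0.882% of all genes lay below, against 0.358% with all libraries, as fewer libraries make separation easier. Igfbp5, a carrier of insulin-like growth factors, had a difference of -0.34, and the stress cytokine gene Gdf15 one of 0.38.

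Of 26 measured p53 targets none was called, and Epha2, an ephrin receptor, alone lay above all doxo libraries, beside 2.77% of all genes. It stood at 4.75 to 5.25 against 3.39 to 3.55 TPM (log2 difference 0.40, SE 0.22). The median was 0.39, or 0.19 without doxo library 2. Sesn2, a stress-induced regulator of growth signalling, had a difference of 0.44 and Plk2, a stress-induced kinase, one of 0.50. Of 16 measured cell cycle genes Rrm2, a subunit of ribonucleotide reductase, lay above all doxo libraries, beside 2.77% of all genes. It stood at 1.55 to 2.53 against 0.29 to 1.31 TPM. The list median was 0.21, 0.05 without doxo library 2 and -0.07 after quantile normalization.

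Inflammatory lists lay near or under the all-gene median. Acute phase genes had a median of 0.20 over 33 measured genes, which was -0.04 after quantile normalization. Among them was Saa3, a serum amyloid made outside hepatocytes too, at 6.85 to 12.4 against 11.2 to 25.3 TPM (log2 difference -0.83, SE 0.31). Interferon-stimulated genes had a median of 0.21 over 31 genes, and -0.02 without doxo library 2. Neither list had a gene called or free of overlap, beside 2.77% of all genes above all doxo libraries and 0.358% below. Among 41 NRF2 targets, Srxn1, which repairs oxidised peroxiredoxins, lay above all doxo libraries, beside 2.77% of all genes. It stood at 16.6 to 18.8 against 7.68 to 14.2 TPM. Gstp1, a glutathione transferase with a near-identical neighbour gene, lay the other way at 2714 to 5149 against 4621 to 5761 TPM (log2 difference -0.46).

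Clock genes had a median of 0.40 over 17 genes, and -0.06 with the length slope in the fit. Among them was Nr1d1, a repressor of the clock, at 10.0, 40.4, 17.4 and 21.2 against 8.93, 5.09, 24.5 and 5.56 TPM. No label used here states the hour of tissue collection. Of 18 measured immediate early genes, Dusp6, a phosphatase that switches off ERK, was the one with an unadjusted limma p under 0.05 (0.0103). It stood at 8.51 to 16.5 against 4.0 to 8.99 TPM.

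**Figure D5:**
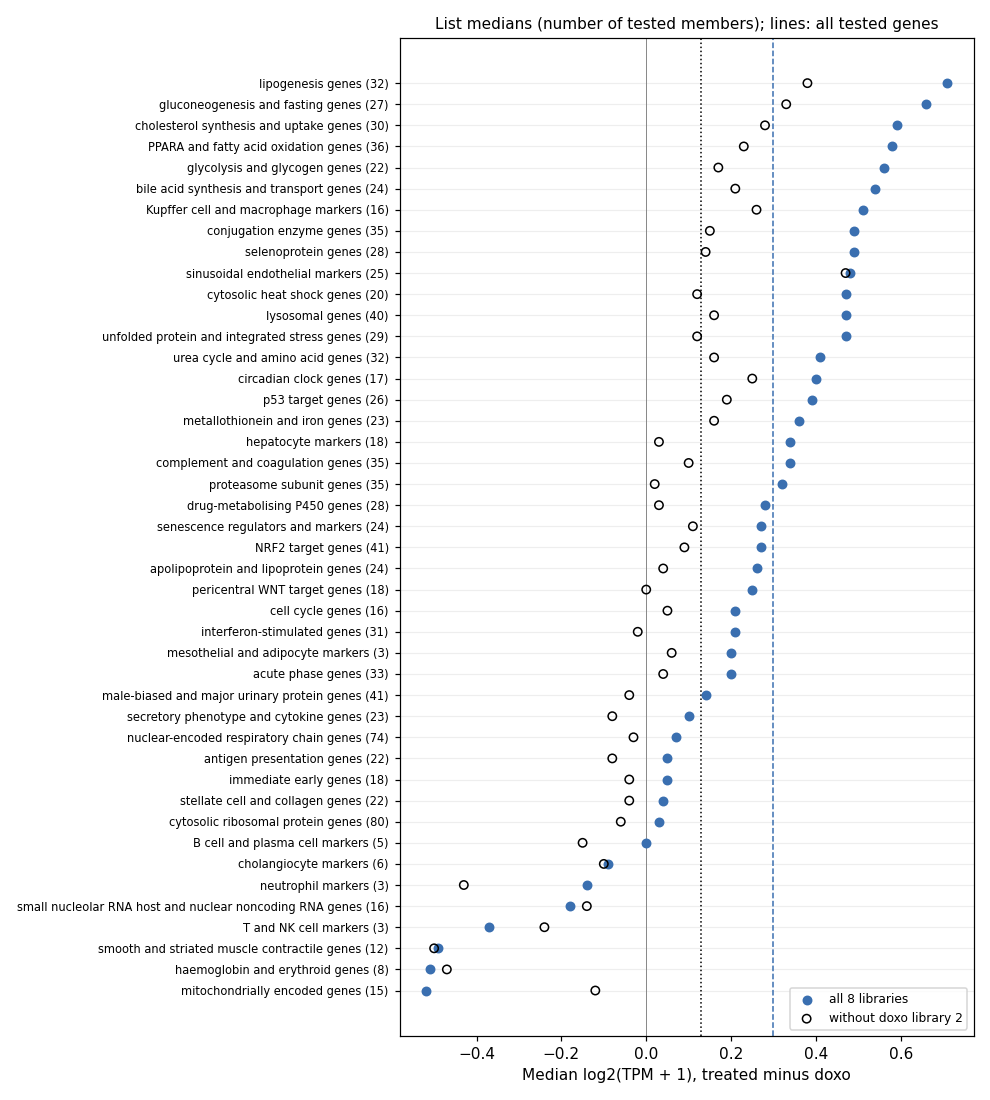
Median difference of log2(TPM + 1), treated minus doxo, for 44 gene lists (number of measured members in parentheses) with all 8 libraries (filled) and without doxo library 2 (open). Dashed and dotted lines are the medians of all tested genes, 0.30 and 0.13. Metabolic lists move left without that library, while the endothelial and erythroid medians stay within 0.04 of their place. The contractile list holds 3 genes put in with their results known, and its median is -0.25 without them.

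Across the 44 lists, 20 medians lay above that of all genes and 24 below, 0 lists had a called member, and 1055 distinct genes were covered. Negative medians were found in 7 lists, and in 16 without doxo library 2. The mitochondrially encoded list had the lowest median, -0.52 over 15 genes, which was -0.12 without doxo library 2. Median differences also followed transcript length, from -0.13 in 553 genes under 500 bases to 0.36 in 2619 genes of 4000 bases or more. The part of RNA quality or library preparation in this pattern was not tested.

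In absolute TPM the greatest differences were in abundant hepatocyte products on the higher side and mitochondrial transcripts on the lower side, and most shrank without doxo library 2. Alb, the albumin gene, averaged 39260 ± 4604 TPM in treated and 31810 ± 10900 TPM in doxo libraries (SD, n = 4, limma adjusted p = 0.428), a log2 difference of 0.38, or 0.08 without that library. Mup7, Mup18 and Mup22, major urinary proteins with nearly identical copies, had log2 differences of 0.31, 0.56 and 0.12, which were 0.03, 0.08 and -0.04 without it. Apoe and Serpina1c, an apolipoprotein and a protease inhibitor of plasma, had differences of 0.17 and 0.33, which were -0.03 and 0.03 without it. On the lower side mt-Co1, a subunit of cytochrome oxidase, averaged 13190 ± 2870 against 25950 ± 22590 TPM, with doxo library 2 at 59681 TPM. Its log2 difference was -0.67, or -0.17 without that library. mt-Nd3 and mt-Atp8 followed at -0.84 and -0.23, or -0.32 and -0.09 without it. Apoc1 and Apoa2 had differences of -0.35 and -0.19, or -0.16 and -0.12 without it.

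Nuclear copies of mitochondrial genes were also among the greatest moves and are uncertain. Gm28661, Gm28437 and Gm10925 had differences of -0.47, -0.46 and -0.60, which were -0.09, -0.10 and -0.30 without doxo library 2. Gm29216 and Gm28438 had differences of 3.15 and 1.13, which were 1.83 and 0.43 without it. Their 31-base stretches occur in mitochondrial transcripts in 100%, 100%, 100%, 97.2% and 99.0% of cases. Gm29216 stood at 4415 to 6176 TPM in treated libraries and at 4474, 38.0, 5965 and 127 TPM in doxo libraries. Mitochondrially encoded transcripts held 10.1% ± 1.33 of TPM in treated and 15% ± 8.40 in doxo libraries (SD, n = 4, exact permutation p = 0.257), and 10.8% ± 0.884 in doxo without library 2.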

How the data were processed

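Liver RNA of 12 mouse samples was sequenced, 4 in each of 3 groups taken from the titles, descriptions and conditions in the labels. Per the labels' protocols, RNA was extracted with TRIzol, treated with DNase I and passed an RNA quality minimum before library preparation. The authors deposited TPM per gene, rounded to 2 decimals, with the same total in each library within rounding. The submitters' processing notes name fastp, a read trimmer, HISAT, an aligner, and RSEM, an expression estimator. Build, annotation, strand setting and depth: not given in the sources used here. The deposited group means were not used.

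The scale tested was log2(TPM + 1), with a pseudocount of 1, which understates changes of low genes, and genes under a mean of 1 TPM were left out. Group means were fitted to all 12 libraries with limma 3.58.1 (R 4.3.3), with an intensity trend, two-sided tests, Benjamini-Hochberg adjustment over 10883 genes and a threshold of 0.05. The procedure was tested on simulated data. A gene was counted as free of overlap when the 4 treated libraries lay all above or all below the 4 doxo libraries in deposited TPM. Library shares were compared by an exact permutation test over 70 divisions of 8 libraries. Symbols, positions and transcripts came from GENCODE M21 by gene identifier (10634 tested genes matched) and promoters from RefSeq.

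Genes named were those called, the 12 of smallest p in each direction with an established symbol and no overlap, the 8 with the largest rise and fall in mean TPM, up to 4 of smallest p from each list described, and Cdkn1a, Cdkn2a, Glb1 and hepatocyte genes. Genes named only for lack of overlap, for cell type or as list neighbours were chosen after their values were seen. The comparison, the 44 lists and the tests were chosen with earlier results of these data known. The figures come from matplotlib 3.10.9 (Python 3.11.15).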

Additional observations from a re-analysis of the deposited data

Results flagged for a closer look

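In each group of 4 libraries, the highest and lowest values of named genes and library shares were checked by Dixon's test, which compares the gap to the nearest library with the whole range, at its critical value for 4 samples. Of 102 groups checked, 18 values stood apart. The nominal 5% of the test is no yardstick here, because many of the genes were picked by their values and the groups share libraries. In doxo library 2 these were the mitochondrially encoded share (27.6%), the share of the 50 most abundant genes (68.4%), mt-Co1 (59681 TPM), Gm28661 (54734 TPM), Gm28437 (35465 TPM) and Rpph1 (13.9 TPM) on the high side. On the low side of that library they were Apoe (21785 TPM), Pck1 (62.8 TPM) and Tex30 (1.08 TPM). Among treated libraries, library 1 stood apart for Nexn (3.77 TPM), library 2 for mt-Co1 (17476 TPM) and Mup18 (7611 TPM), and library 3 for Rpph1 (1.69 TPM), Amn1 (4.84 TPM) and Tagln (2.96 TPM). Treated library 4 stood apart for Gm47551 (1.47 TPM), Ints6 (7.30 TPM) and Gm10925 (7754 TPM).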

How the results depend on the processing

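Depth is unknown for TPM, so no counting limit could be given. Of 26 settings, 23 besides the one reported were planned, and 2 were chosen after seeing the data, the length slope as a covariate and the fit without control library 1 and doxo library 2 together. Leaving Nexn, Mgp and Tnnt2 out of the contractile list was also chosen after seeing the data, and moved its median from -0.49 to -0.25. The single lower call became 0 with a pseudocount of 0.01, no filter, median-of-ratios scaling, quantile normalization, a total without the 50 most abundant and the mitochondrially encoded genes, the replicate number as a block, and both added fits. The fit of the 8 compared libraries alone called 1 gene higher, Gm37121 (log2 difference 1.90, adjusted p = 0.00278). Array quality weights called 45 genes higher and 32 lower. Among the higher were G6pc, Cd300ld3, Adgrv1, Tmem161a, Elf2 and Ppara. Among the lower were Gm47551, Nexn, Mgp, Tnnt2, Acta2, Tagln, Itgb7, Rpph1 and Amn1. Pck1, Scd1 and Hba-a1 were not called there. Leaving out 1 library gave 0 to 1 higher calls and 0 to 1 lower calls. Without doxo library 2 or 4, or treated library 1 or 2, there was no lower call. Without treated library 3 the lower call was Snhg9, not Gm47551, and without treated library 1 the higher call was Ptges3-ps.

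The median over all genes was 0.02 with no filter, -0.00 with median-of-ratios scaling, 0.03 after quantile normalization, 0.14 with the reduced total, 0.16 with weights, 0.02 with the length slope and 0.13 without both libraries that stood apart. Leaving out 1 library gave 0.13 to 0.39. Genes above all doxo libraries numbered 178 at a mean TPM of at least 5, 111 with median-of-ratios scaling, 141 after quantile normalization and 194 with the reduced total. Those below numbered 156 with no filter, and 16, 145, 128 and 94 under the same 4 settings in that order, and 96 without both libraries that stood apart. Leaving out 1 library gave 321 to 1935 above, the highest without treated library 1 (1935) and doxo library 1 (1761), and 54 to 127 below. Fewer libraries make separation easier. The shift between scalings moves the split of higher and lower genes, so the counts of 302 and 39 hold for the deposited scale only.

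Counting each named gene or list once per setting, 26 values crossed to the weaker side of the threshold, 33 to the stronger side, 349 moved and 5834 did neither. Same-numbered doxo and treated libraries did not deviate together, with correlations of -0.397, -0.035, 0.043 and -0.144. Differently numbered ones lay between -0.246 and 0.306. With 4 libraries a group this shows no pairing by number but cannot exclude one. With the replicate block, 0 genes were called.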
